A study of Homo sapiens with 4 samples.

Results

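The genes described here are 10 genes of the Notch pathway, namely the receptors NOTCH1, NOTCH2 and NOTCH3, the ligands JAG1, JAG2 and DLL1, the nuclear partners RBPJ and MAML1, and the target genes HES1 and HEY1. They were taken by name out of 19974 protein-coding genes. Every H3K9la region that overlapped such a gene or lay within 50 kb of it was collected, which gave 140 of 56875 regions in the sg3 list and 104 of 40332 in the V2 list. H3K9la is histone H3 lactylated at lysine 9, mapped by ChIP-seq in KYSE30, an established line of oesophageal squamous cell carcinoma. The study has 4 samples, since each of the arms labelled sg3 and V2 gave 1 anti-H3K9la library and 1 input library, and the series title names SIRT3 as an eraser of the mark. Both arms are the same cell line, grown in DMEM with serum and fixed with formaldehyde. The labels sg3 and V2 are not explained there, and the list named V2 sits with the input sample of that arm and was read as the list of its ChIP. The deposited data are 1 list of called regions per arm, with no replicates, so every difference between the lists below compares 2 libraries and was not tested.

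Notch receptors are cut after a ligand on a neighbouring cell binds them, and the freed intracellular domain enters the nucleus. There it joins the DNA-binding protein RBPJ and a co-activator of the Mastermind family, such as MAML1, and switches on target genes. HES1 and HEY1, which encode transcriptional repressors, are classic targets. In squamous epithelia such as that of the oesophagus, Notch signalling is known for its part in the move of basal cells into differentiation. A region (a record in the plots) is a stretch of DNA that the peak caller marked as enriched. Its fold enrichment is the ratio of ChIP signal to background at its highest point, the summit, and its -log10 q states how far it stands out within its own library. Both are the authors' values, and they rank regions only within 1 list. A number in brackets after an enrichment is the -log10 q. A region measures the mark and not the expression of a gene.

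The promoters of 4 genes show how the mark fell on the sequence around a start, and they were chosen after their values were seen. The sequences are from RefSeq on GRCh38.p14, run from 250 bases before the start to 50 bases from it, and are written 5′ to 3′ on the strand of the gene. Promoter sequences matched 8 of the 10 genes by symbol. HES1 (chr3:194135898-194136197, plus strand) and RBPJ at the second of its 5 listed starts (chr4:26319496-26319795, plus strand) are shown because they hold the letters GTGGGAA, the core of the site that RBPJ itself binds. Capitals mark these letters on either strand.

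HES1: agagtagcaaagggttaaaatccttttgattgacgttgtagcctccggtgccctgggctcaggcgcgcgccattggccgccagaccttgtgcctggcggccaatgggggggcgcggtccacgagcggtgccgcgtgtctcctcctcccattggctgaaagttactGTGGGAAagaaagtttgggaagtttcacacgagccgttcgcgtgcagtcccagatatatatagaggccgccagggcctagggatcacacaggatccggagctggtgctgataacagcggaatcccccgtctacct
RBPJ: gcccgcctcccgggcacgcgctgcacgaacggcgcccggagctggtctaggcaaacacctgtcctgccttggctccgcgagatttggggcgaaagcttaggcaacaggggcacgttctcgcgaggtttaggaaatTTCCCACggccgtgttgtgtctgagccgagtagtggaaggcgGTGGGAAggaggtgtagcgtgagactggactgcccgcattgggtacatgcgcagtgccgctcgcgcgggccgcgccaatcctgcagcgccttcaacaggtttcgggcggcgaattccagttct

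HES1 held 1 match, on the strand of the gene at positions 166 to 172 counted from 1 at the 5′ end. The RBPJ sequence held 2, at positions 136 to 142 on the opposite strand and at 178 to 184 on its own strand. The other 10 promoter windows of these genes held none. Of 22006 promoter windows of protein-coding genes, 5.99% held GTGGGAA on either strand. Sites of the HES and HEY type, searched as CACGNG on either strand, occurred in 35.2% of windows and 4 times in that of HES1. They were not particular to HES1. The windows of NOTCH2, NOTCH3, JAG1, JAG2 and of RBPJ at listed starts 2 and 4 held them too. The AP-1 site TGANTCA, a palindrome, occurred in 6.17% of windows and among these genes only at the fifth listed start of RBPJ. A match is a match of letters and not an observed binding site.

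JAG1 (chr20:10673950-10674249, minus strand) and NOTCH3 (chr19:15200946-15201245, minus strand) are shown for the reach of the mark. Capitals mark bases that lay under an sg3 region.

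JAG1: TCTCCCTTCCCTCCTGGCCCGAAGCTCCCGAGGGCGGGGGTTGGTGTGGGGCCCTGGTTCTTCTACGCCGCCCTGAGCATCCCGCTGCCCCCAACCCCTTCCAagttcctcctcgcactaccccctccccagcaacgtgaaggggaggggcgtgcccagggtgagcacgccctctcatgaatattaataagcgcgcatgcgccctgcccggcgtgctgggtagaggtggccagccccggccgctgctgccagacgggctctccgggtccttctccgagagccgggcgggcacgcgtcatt
NOTCH3: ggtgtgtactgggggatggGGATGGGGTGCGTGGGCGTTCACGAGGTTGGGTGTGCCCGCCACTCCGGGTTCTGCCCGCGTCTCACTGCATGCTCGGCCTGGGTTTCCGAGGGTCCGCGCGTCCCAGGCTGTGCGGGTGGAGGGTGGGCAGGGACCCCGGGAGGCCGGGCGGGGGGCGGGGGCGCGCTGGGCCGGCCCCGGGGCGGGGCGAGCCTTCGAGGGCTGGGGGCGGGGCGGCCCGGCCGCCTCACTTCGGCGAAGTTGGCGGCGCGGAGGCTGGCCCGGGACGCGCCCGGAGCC

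In JAG1 the first 103 of 300 bases lay under an sg3 region and 108 under a V2 region, and the bases around the start were free in both. In NOTCH3 281 bases lay under the sg3 region and all 300 under the V2 region. None of the 300 promoter bases of HES1, NOTCH1 or NOTCH2 lay under a region of either list.

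Regions stood on the start itself in few of these genes, and next to it in most. Among the 8 genes with a listed start, 7 had an sg3 region within 1 kb of a start (87.5%, exact Clopper-Pearson 95% CI 47.3 to 99.7%), against 48.9% of 15812 protein-coding genes. The same 7 had a V2 region there, against 29.6% of all genes. JAG2 was the gene with none. The intervals cover counting error only, and they include the share over all genes for sg3 but not for V2. The genes were chosen by name with earlier results of these data known, so nothing was tested from this. Genes with a start region in both lists made up 29.1% of all genes, those with one in sg3 alone 19.8%, and those with one in V2 alone 0.443%. No gene of these 8 had a start region in 1 list alone. With -log10 q held to at least 10, or fold enrichment to at least 4, NOTCH2 and MAML1 kept theirs in sg3 alone. The same cutoff need not mean the same in both lists, and the V2 region of MAML1 had a -log10 q of 9.67. The share over all genes at these cutoffs is not given here.

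At HES1, NOTCH1 and JAG1 regions lay on both sides of the start with a free stretch between them. For HES1 the sg3 list left 591 bases free, from 280 bases before the start to 312 bases after it, and the V2 list left 938 bases. For NOTCH1 the sg3 list left 352 bases and the V2 list 599. For JAG1 they left 362 and 396. In each of these 3 genes the stretch was wider in the V2 list. At NOTCH2 and MAML1, and at the second listed start of RBPJ, the mark lay downstream of the start only. The sg3 region began 55 bases after the start of NOTCH2, 19 bases after that of MAML1 and 49 bases after that of RBPJ. The V2 regions began 204, 50 and 110 bases after these starts. Over the whole lists the median width of a region was 618 bases in sg3 and 560 in V2. Among all genes with a start region, a start base lay under a region in 46.3% in sg3 and 32.3% in V2. The width of the free stretch and the place where regions began were not compared between the lists over all genes. Neither difference is thus shown to be particular to these Notch genes.

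**Figure D1:**
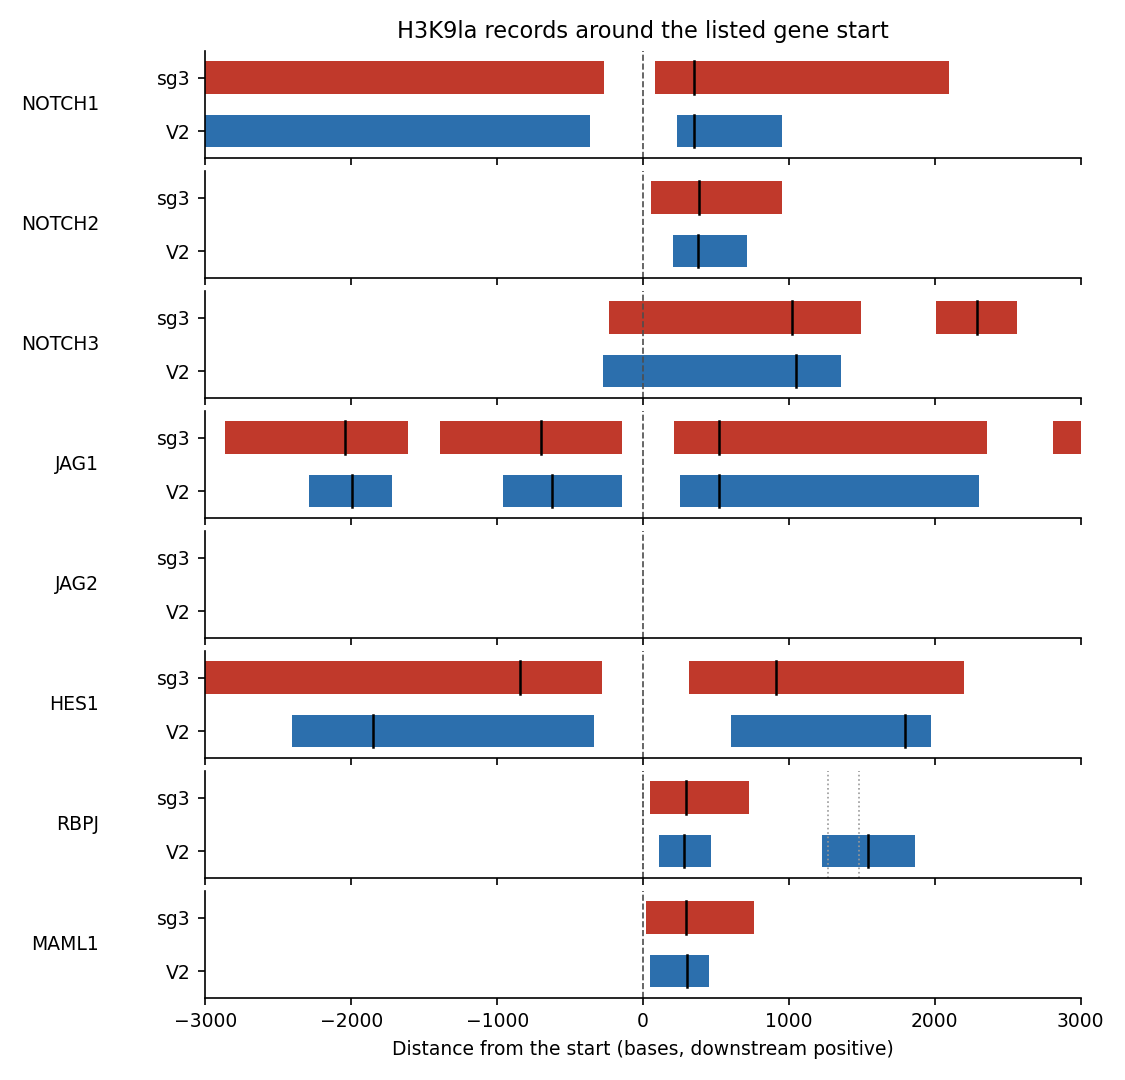
H3K9la regions within 3 kb of the listed start of 8 genes, drawn along the direction of transcription (x axis, bases from the start), with sg3 above V2 and a black tick at each summit; RBPJ is drawn from its listed start 2, with dotted lines at others. The start of NOTCH3 lies under a region in both lists, JAG2 has no region, and HES1, NOTCH1 and JAG1 show a free stretch around the start.

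NOTCH3 was the gene whose start base lay under an sg3 region, which is 1 of the 7 genes with a start region (14.3%, exact 95% CI 0.361 to 57.9%). Over all genes with an sg3 start region, 46.3% had a start base under a region. In V2 the start base was covered in NOTCH3 and at the listed starts 3 and 4 of RBPJ, 2 of 7 genes (28.6%, exact 95% CI 3.67 to 71.0%), against 32.3% of all genes. Both intervals include the share over all genes, but with 7 genes they are too wide to tell whether these genes stood apart. Counted at 1 listed start per gene, the base 100 bases before the start was covered in 25.7% of the 7739 genes with an sg3 start region, and the base 300 bases after it in 77.1%. In V2 these values were 16.0% and 66.6% of 4678 genes. When sg3 regions within 1 kb of each other were joined, the start bases of 4 of the genes were covered.

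**Figure D2:**
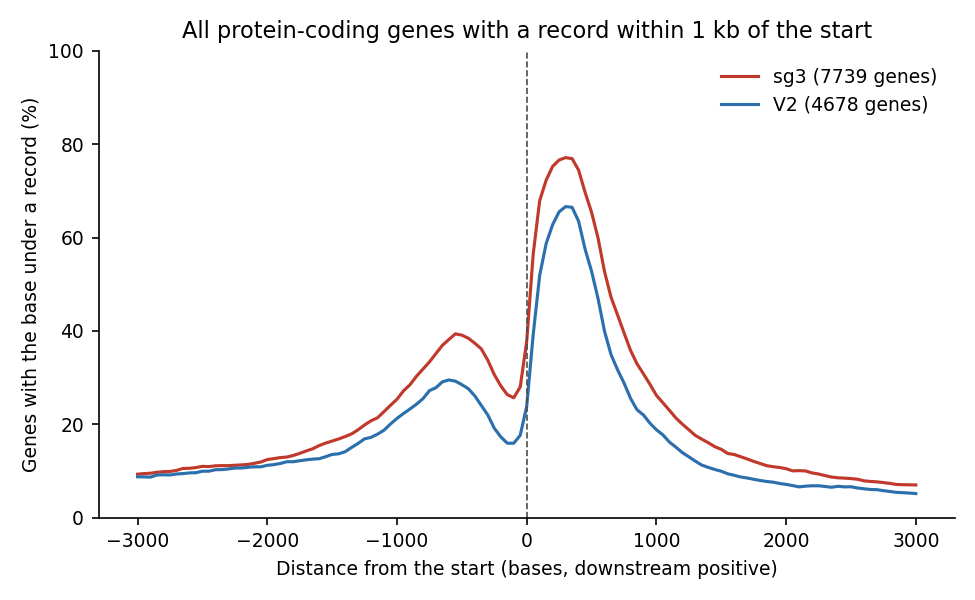
Share of protein-coding genes (y axis, %) whose base at a given distance from the start (x axis, bases, downstream positive) lies under an H3K9la region, for genes with a region within 1 kb of the start in the sg3 list (7739 genes) or the V2 list (4678 genes). Both lines dip just before the start, to 25.7% in sg3 and 16.0% in V2 at 100 bases before it, and peak at about 300 bases after it.

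The number of regions around the 10 genes ran from 1 to 43 in sg3 and from 0 to 36 in V2. HES1 had 43 sg3 and 36 V2 regions within 50 kb, and JAG1 had 35 and 17. HEY1 had 16 and 17, NOTCH3 had 16 and 11, and NOTCH1 had 13 and 11. MAML1 had 8 and 7, JAG2 had 4 and 1, and RBPJ had 2 and 3. DLL1 had 2 and 0, and NOTCH2 had 1 and 1. Bases under regions order the genes differently. NOTCH1, with fewer regions than JAG1, had 31352 bases under sg3 regions and 19024 under V2 regions. JAG1 had 29902 and 10498. The median over these genes was 10.5 sg3 and 9 V2 regions, against 3 and 1 over all protein-coding genes, whose upper quartiles were 8 and 5. Having at least 1 region within 50 kb is common: 10 of 10 genes did in sg3 and 9 of 10 in V2, against 78.3% and 64.4% of all genes. HEY1 and RBPJ had more V2 than sg3 regions, which 7.21% of all genes did. In bases covered the order was the reverse at both. HEY1 had 15389 bases under sg3 and 11247 under V2 regions, and RBPJ had 1667 and 1553.

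**Figure D3:**
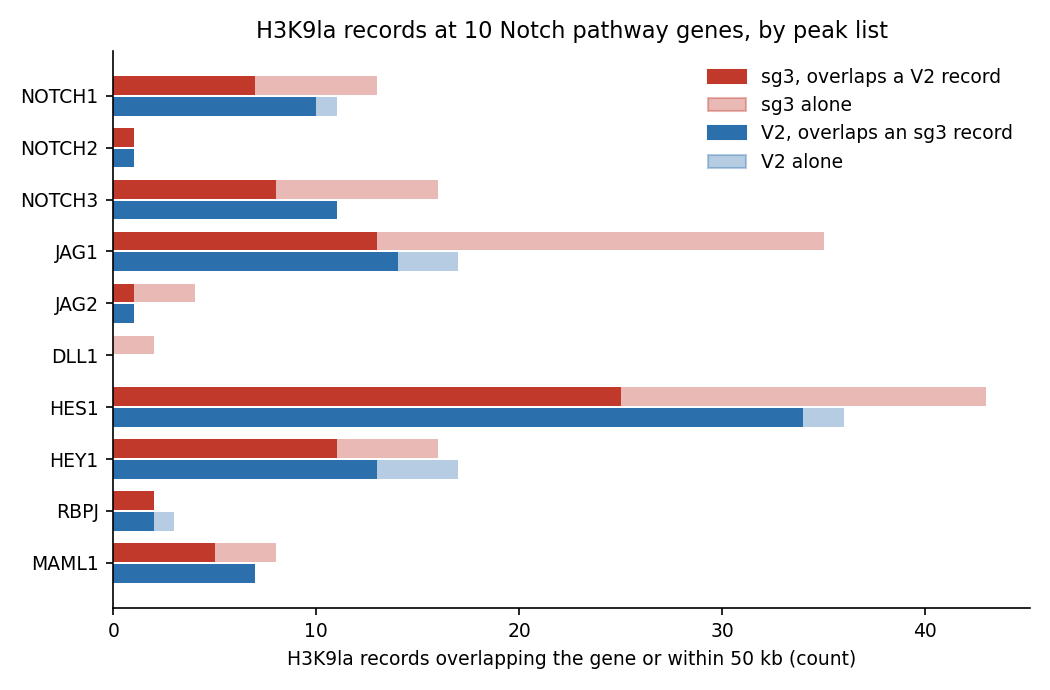
Number of H3K9la regions overlapping each of the 10 genes or within 50 kb of it (x axis, count), with 1 bar for the sg3 list and 1 for the V2 list; pale parts are regions with no overlapping region in the other list. HES1 has the most regions (43 and 36), JAG1 has the longest pale part (22 of 35 sg3 regions), and DLL1 and NOTCH2 have 2 or fewer.

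**Figure D4:**
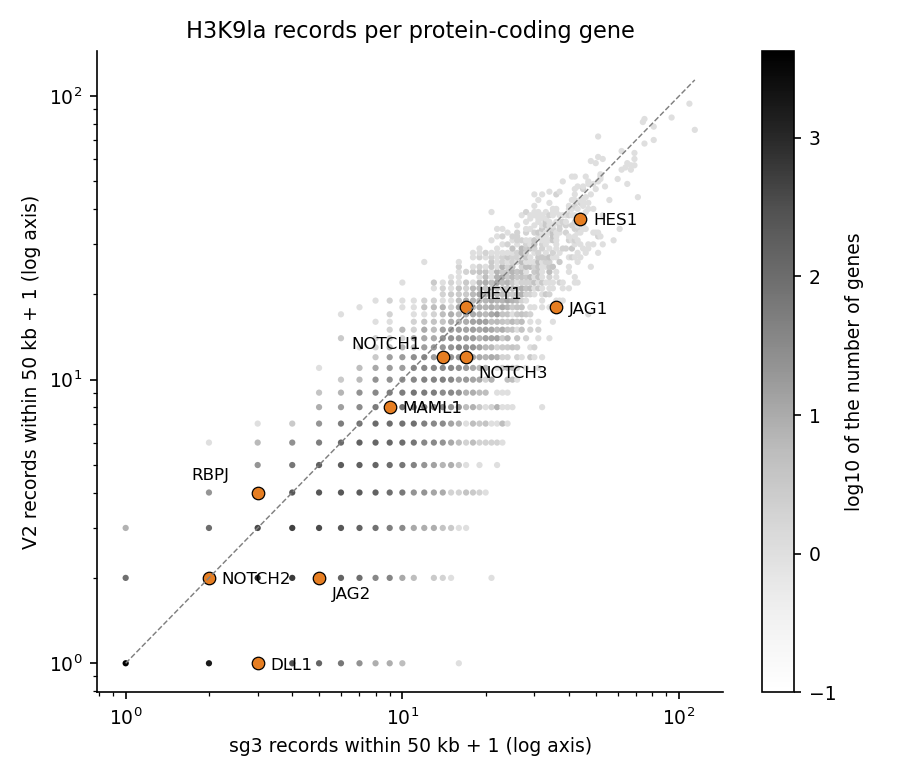
Number of sg3 regions (x axis) and V2 regions (y axis) within 50 kb of each of 19974 protein-coding genes, each plus 1 on log axes, with darker points for more genes and the 10 Notch genes in orange; the dashed line marks equal numbers. HES1 lies near the upper end, JAG1 lies below the line, and HEY1 and RBPJ lie just above it.

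Most V2 regions around these genes had an sg3 counterpart, as over the whole lists. Of 104 V2 regions, 93 shared bases with the sg3 list (89.4%, exact 95% CI 81.9 to 94.6%), against 86.3% of all V2 regions. Of 140 sg3 regions, 73 shared bases with the V2 list (52.1%, exact 95% CI 43.5 to 60.7%), against 52.4% of all sg3 regions. Neither share stood apart from that of its list. The intervals treat each region as independent, but many are neighbours at the same gene, so they are likely too narrow. Without HES1, which held 30.7% of the sg3 and 34.6% of the V2 regions, the shares were 86.8% of V2 and 49.5% of sg3 regions. The 67 sg3 regions without a partner had a median fold enrichment of 4.06 and a median width of 546 bases, and the shared ones had 5.07 and 992 bases. The sg3 list covered 1.82 times as many bases around these genes as the V2 list, against 1.75 times over the whole lists. In 63 cases 1 sg3 region met exactly 1 V2 region and no other. Their summits lay a median of 32 bases apart, and 40 of them lay within 50 bases, against a median of 45 bases over 24667 such pairs in the lists.

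The receptors differed widely. NOTCH1 (chromosome 9, 136494433 to 136546048, minus strand) encodes the main Notch receptor of squamous epithelia. Its widest region in both lists lay upstream of the start. The sg3 region from 136546319 to 136559042 was enriched 17.8-fold (-log10 q 194.9), which ranked 6 of 56875 sg3 regions by -log10 q. The V2 region from 136546413 to 136558636 was enriched 10.2-fold (106.2) and ranked 187 of 40332. By width the V2 region ranked 7 in its list and the sg3 region ranked 62. The summits of these regions were 4 bases apart, at 136551100 and 136551104, upstream of the start at 136546048. NALT1, a long non-coding RNA gene, lies wholly inside this stretch.

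Fewer of the regions around NOTCH1 lay inside the gene than outside it. Of the 13 sg3 regions 3 overlapped the gene, and of the 11 V2 regions 2 did. The region next to the start, from 136543953 to 136545966 in sg3, was enriched 4.27-fold (-log10 q 35.1). Its V2 counterpart, from 136545095 to 136545813, was enriched 2.21-fold (8.88), and 68.5% of V2 regions ranked as high or higher by -log10 q. Further upstream a 7881-base sg3 region from 136561466 to 136569346 faced 4 separate V2 regions. Beyond the other end of the gene, 2 regions in each list lay in SEC16A, a gene for a protein of endoplasmic reticulum exit sites.

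NOTCH2 (chromosome 1, 119911553 to 120069662, minus strand) had a single region in each list within a gene of 158110 bases and its surroundings. The sg3 region spanned 120068708 to 120069607 and was enriched 5.09-fold (-log10 q 28.7). Its V2 counterpart spanned 120068952 to 120069458 and was enriched 2.57-fold (7.95). The summits lay 383 and 373 bases after the start. The first part of NOTCH2 has near-identical copies in the NOTCH2NL genes on the same chromosome, and how reads with several alignments were treated is unknown here, so the values of NOTCH2 are uncertain.

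NOTCH3 (chromosome 19, 15159038 to 15200995, minus strand) had a region across its start in both lists. In sg3 it spanned 15199503 to 15201226 and was enriched 8.06-fold (-log10 q 46.7). In V2 it spanned 15199637 to 15201272 and was enriched 7.92-fold (42.0). It was the strongest V2 region around this gene by -log10 q. In sg3 a region from 15193960 to 15196677, farther into the gene, stood higher on both measures, enriched 12.2-fold (66.5). The V2 list had 3 separate regions in its place, with fold enrichments of 2.90, 3.80 and 4.68. A group of regions beyond the far end of the gene lay closer to HACL2, and 4 sg3 regions and 0 V2 regions lay in that gene. One of these, from 15124560 to 15125810 (fold enrichment 7.57, -log10 q 37.6), had the highest -log10 q of the sg3 regions without a V2 partner around the 10 genes.

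Among the ligands JAG1 had regions on the gene in both lists, and JAG2 and DLL1 had none. JAG1 (chromosome 20, 10637684 to 10673999, minus strand) had 35 sg3 regions, which ranked 165 of 19974 protein-coding genes, and 17 V2 regions, which ranked 905. Inside the gene there were 10 sg3 regions and 3 V2 regions, and each of the 3 overlapped an sg3 region. Of the 7 sg3 regions inside the gene without a partner, that from 10665661 to 10667423 had the highest -log10 q (30.4), and that from 10652095 to 10653855 had the highest fold enrichment (8.00). At the start, the downstream sg3 region from 10671644 to 10673784 was enriched 6.80-fold (-log10 q 42.1), and its V2 counterpart from 10671699 to 10673745 was enriched 3.40-fold (13.8). The upstream sg3 region from 10674147 to 10675394 was enriched 6.47-fold (52.1), and its V2 counterpart from 10674142 to 10674957 was enriched 5.05-fold. A chain of regions past the far end of JAG1, 15 in sg3 and 10 in V2, lay in the neighbouring gene SLX4IP. The highest -log10 q values around JAG1 in both lists were there, at 57.8 in sg3 (10592231 to 10593027) and at 37.1 in V2 (10592413 to 10593030).

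JAG2 (chromosome 14, 105140995 to 105168776, minus strand) had no region on the gene or near its start in either list. Its nearest sg3 region ended 48881 bases from the start, beyond the other end of the gene. The 4 sg3 regions had fold enrichments from 3.49 to 4.97. The single V2 region, 105091830 to 105092264, had 3.79. DLL1 (chromosome 6, 170282206 to 170291078), a Delta-type ligand, had no region on the gene or within 1 kb of either end. Its 2 sg3 regions, with fold enrichments of 4.09 and 4.16, lay in the neighbouring gene FAM120B. The nearest V2 region was 131422 bases from the one nearer to DLL1 and 130576 bases from the other. No start of DLL1 was listed, so its 2 ends were searched.

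The nuclear partners had regions at their starts in both lists. RBPJ (chromosome 4, 26105449 to 26435131, plus strand), the DNA-binding factor of the pathway, has 5 listed starts in 329683 bases. Its regions lay near the second to the fifth, and none lay near the first. The sg3 region from 26319795 to 26320469 was enriched 6.68-fold (-log10 q 28.5), and its V2 counterpart from 26319856 to 26320214 was enriched 3.90-fold (8.03). A further pair lay after the fifth start, enriched 2.90-fold (5.45) in sg3 at 26343547 to 26344538, and 4.98-fold (8.73) in V2 at 26343489 to 26344040.

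The V2 region of RBPJ with the highest fold enrichment and -log10 q had no sg3 partner. It ran from 26320970 to 26321611, over listed starts 3 and 4, and was enriched 6.14-fold (-log10 q 31.2). The nearest sg3 region ended 501 bases before it. By -log10 q it ranked 3 among the 5520 V2 regions with no sg3 partner. All 300 bases of the promoter window of listed start 4 lay under it. With 1 library per arm this difference has no replicate check.

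MAML1 (chromosome 5, 179732822 to 179777283, plus strand), the co-activator, had 1 region of its own in each list, at the start. The sg3 region from 179732841 to 179733584 was enriched 4.23-fold (-log10 q 38.4), and its V2 counterpart from 179732872 to 179733271 was enriched 2.19-fold (9.67). The other 7 sg3 and 6 V2 regions within 50 kb lay in neighbouring genes, among them CANX, which encodes the chaperone calnexin, and SQSTM1, which encodes an autophagy receptor. The highest fold enrichment and -log10 q were in SQSTM1, from 179816071 to 179820778 in sg3 (fold enrichment 10.2, -log10 q 97.9) and 179817507 to 179820774 in V2 (-log10 q 57.0).

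The target gene HES1 (chromosome 3, 194136148 to 194138732, plus strand) sat in a dense field of the mark. Within its window of 102585 bases 53.7% lay under sg3 regions, which ranked 24 of 19974 protein-coding genes. In V2 30.8% did, which ranked 90. The median over all genes was 1.37% in sg3 and 0.488% in V2. By number of regions HES1 ranked 70 in sg3 and 102 in V2. The 13 other protein-coding genes within 1 Mb whose windows do not meet that of HES1 had 0 to 23 sg3 regions and 0 to 13 V2 regions, and at most 16.5% and 8.75% of their windows were covered. None of these neighbours reached the values of HES1 in either list.

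The field around HES1 extended on both sides, and its highest -log10 q was not at the gene in either list. The sg3 region with the highest -log10 q, from 194082808 to 194092543, was enriched 14.2-fold (-log10 q 136.3) and met 5 V2 regions. The V2 region with the highest -log10 q, from 194087520 to 194089474, was enriched 11.3-fold (98.0), with a summit 67 bases from that of the sg3 region and far upstream of the HES1 start, at 194089121. Both lay in LOC102724877, annotated as a protein-coding gene, which held 19 sg3 and 15 V2 regions in all. Another 23 sg3 and 20 V2 regions lay between protein-coding genes. In 4 places 1 sg3 region spanned 2 or more V2 regions.

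The regions on HES1 and before its start held different places in the lists. In sg3 the region on the gene, from 194136460 to 194138349, was enriched 8.41-fold (-log10 q 82.2), and the nearest region before the start, from 194132777 to 194135868, was enriched 7.27-fold (76.0). The next sg3 region upstream, from 194126755 to 194132538, was enriched 9.91-fold (64.9), so the region on the gene lay between these by fold enrichment. In V2 the region on the gene, from 194136750 to 194138119, was enriched 2.30-fold (9.61), and the nearest region before the start, from 194133741 to 194135811, was enriched 5.64-fold (76.7). The region on the gene was thus among the top 2.40% of the sg3 list and in the lower part of the V2 list, where 64.2% of regions ranked as high or higher. The summits on the gene lay 883 bases apart. The nearest upstream region was in the top 3.09% of sg3 and the top 1.63% of V2.

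A ratio of enrichment after the start to enrichment before it was formed within each list, after these values were seen. The strongest fold enrichment with a summit up to 2 kb after the start was divided by the strongest with a summit up to 6 kb before it. For HES1 in sg3 the upstream value was that of the 9.91-fold region and not of the nearest one. HES1 had a ratio of 0.849 in sg3 and 0.407 in V2, so upstream was higher in both lists. JAG1 had 1.05 and 0.536, and NOTCH1 had 0.240 and 0.217. The ratio was lower in V2 in these 3 genes, and they were the Notch genes with 1 listed start for which it could be formed. Over 870 protein-coding genes the median ratio was 1.01 in sg3 and 0.871 in V2, and it was lower in V2 for 63.8% of them. The direction in these 3 genes was also that of most genes. With 1 library per arm it was not tested.

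**Figure D5:**
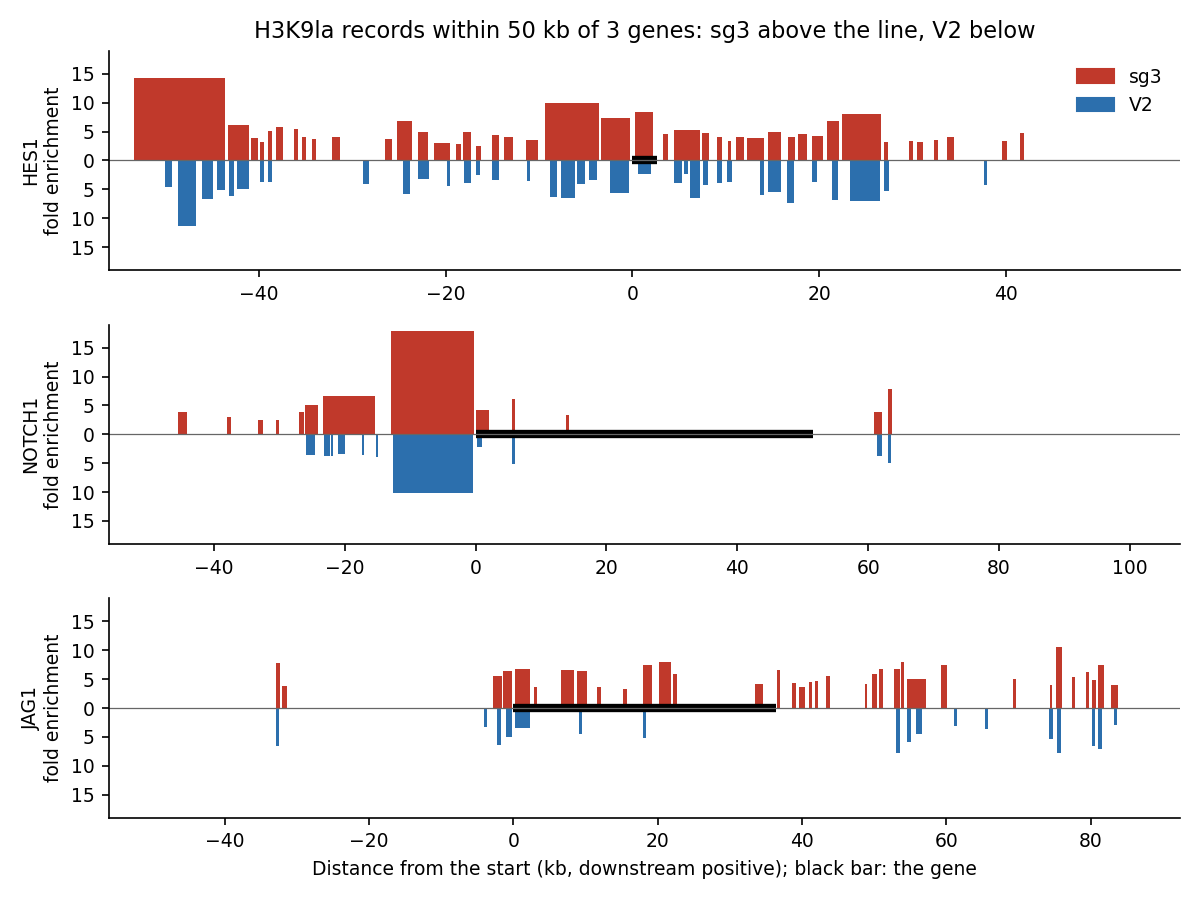
H3K9la regions within 50 kb of HES1, NOTCH1 and JAG1, along the direction of transcription (x axis, kb from the start), with the authors' fold enrichment as height (y axis), sg3 above the line and V2 below, and the gene as a black bar. HES1 is surrounded by regions, the NOTCH1 regions lie mainly upstream around 1 wide region of 12724 bases in sg3, and inside JAG1 there are 10 sg3 but 3 V2 regions; heights are not comparable between the lists.

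HEY1 (chromosome 8, 79764010 to 79767767), the other target gene, carried the mark inside the gene close to the end with the larger coordinate, and most of its regions lay beyond that end. Its start is not among the listed ones. The sg3 region from 79767199 to 79767753 was enriched 6.94-fold (-log10 q 53.9), and its V2 counterpart from 79767316 to 79767745 was enriched 4.65-fold (27.8), with summits 13 bases apart. Both stopped just short of this end of the gene. Past it the sg3 region from 79768383 to 79771098 faced 3 V2 regions, of which the one from 79769237 to 79770156 was the strongest V2 region here by -log10 q (29.4). The last sg3 region ended at 79808735, and 14 of the 16 sg3 regions lay between protein-coding genes. HEY1 had the most V2 regions without an sg3 partner of these genes, 4 of 17, with -log10 q values of 3.37 to 15.8.

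The 3 genes most like HES1 in bases covered, by the distance of log2(covered bases + 1) in the 2 lists, were OSBP2, PLEKHG6 and RAI1. Their windows held 45, 29 and 41 sg3 regions and 33, 32 and 29 V2 regions. They lie on chromosomes 22, 12 and 17. The likeness rests on 2 values per gene.

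Regions within 50 kb need not belong to the gene they were collected for. Of the 140 sg3 regions 24 overlapped the Notch gene itself, 49 lay in another protein-coding gene and 67 between genes. For 63 of them another protein-coding gene was nearer. Of the 104 V2 regions 16, 33 and 55 fell in these places, and for 44 another gene was nearer.

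Other genes of the pathway were read at their starts from a list of 46, of which 38 had a listed start. Of these, 19 had a start region in both lists, 5 in sg3 alone, 0 in V2 alone and 14 in neither. That is 63.2% with an sg3 region and 19 of 38 with a V2 region, beside 48.9% and 29.6% of all genes. Start regions in both lists were found for 29.1% of all genes and in sg3 alone for 19.8%, which the counts of each small group are set beside. Of the enzymes that cut Notch 4 of 6 had one in both lists, among them the shedding protease ADAM17 (fold enrichment 11.4 in sg3 and 7.63 in V2) and the gamma-secretase subunit APH1A (13.0 and 11.1). NCSTN, which encodes the subunit nicastrin, had a start region in sg3 alone (10.7). Of the genes that add sugars to Notch, POFUT1 had a start region in both lists and POGLUT1 in sg3 alone, and LFNG and RFNG had none. Of the genes of ligand endocytosis and receptor turnover 6 of 9 had one in both lists, including FBXW7, which encodes the ubiquitin ligase subunit that recognises the Notch intracellular domain (9.81 and 4.90).

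Of 8 further genes grouped as targets 5 had a start region in both lists and 0 in sg3 alone, beside 29.1% and 19.8% of all genes. The group was drawn up by name, and whether Notch controls each of its genes was not tested. HES2 (fold enrichment 9.84 in sg3 and 5.74 in V2), HES4 (10.3 and 7.68), HES7 (7.78 and 2.94) and HEY2 (8.30 and 4.12) encode repressors of the HES and HEY family. NRARP, a target that encodes a feedback inhibitor of Notch, had the highest -log10 q of these in sg3, at 177.2 with a fold enrichment of 13.2, and in V2 its -log10 q was 28.9 with a fold enrichment of 3.48. HES5, HES6 and HEYL had no start region in either list. The remaining receptor and ligand genes with a listed start, NOTCH4, DLL4 and DLK2, had none either. Of the nuclear partners 3 of 8 had a start region in both lists and 2 of 8, MAML2 and SNW1, in sg3 alone (6.87 and 7.41), shares near those over all genes. MAML3, RBPJL and KAT2B had none.

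The labelled cell type was read from markers of squamous epithelium. Of 8 with a listed start, 6 had a start region in both lists, including SFN and DSP, and KRT5 and TP63 had one in sg3 alone, beside 29.1% and 19.8% of all genes. Of 16 markers of endothelium, blood, neuron and liver with a listed start, SYT1, which encodes a synaptic vesicle protein, was the 1 with a start region, and had it in both lists.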

How the data were processed

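The deposited data are 2 lists of H3K9la regions called on build hg38, 1 per arm. The submitters' processing notes name MACS2 2.2.9.1 as well as Bowtie2 2.5.1, SAMtools 1.18, Trim Galore 0.6.10 and FastQC 0.12.1. Commands, control library and depth of reads were not given in the sources used here. The list called V2 was deposited with that arm's input sample. Fold enrichment (a ratio), -log10 p and -log10 q are deposited by the authors as the caller wrote them. The integer score deposited by the authors was not used.

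Gene positions were taken from RefSeq GRCh38.p14, the same build, for chromosomes 1 to 22 and X. Starts and strands came from its promoter table, which lists 15812 of 19974 protein-coding genes. The genes and gene lists were chosen with earlier results of these data known. Named are all 10 genes, with the region at the start and the strongest and widest region in each list. Regions overlapping by at least 1 base were called shared. The interval code (Python 3.11.15, pandas 2.3.3, SciPy 1.17.1) was tested on simulated data. With 1 library per arm no test was made. Alternatives changed thresholds, windows, overlap, list length and merging.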

Additional observations from a re-analysis of the deposited data

How the results depend on the processing

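The number of regions around the 10 genes followed the definition of a region and the window. Joining regions within 1 kb gave 65 sg3 and 56 V2 regions, and a window of 10 kb gave 46 and 36. A window of 100 kb gave 204 sg3 and 159 V2 regions. A -log10 q of at least 10 left 97 sg3 and 68 V2 regions, and a fold enrichment of at least 4 left 94 and 59. The share of sg3 regions with a V2 partner was 41.5% at a fold enrichment of at least 4, 65.7% in lists of equal length and 65.0% when a partner within 1 kb counted. The share of V2 regions with an sg3 partner was 76.3% at that fold enrichment and 95.2% with a partner within 1 kb. The count of genes with a start region in sg3 alone, 0 as reported, was 2 with -log10 q held to at least 10 and 2 at a fold enrichment of at least 4, where NOTCH2 and MAML1 lost their V2 region by these thresholds. It was 1, HES1, when the summit had to lie within 1 kb of the start. The counts of genes with a start region stayed at 6 or 7 of 8 in sg3 and 5 to 7 in V2. The number of start bases under an sg3 region, an alternative added after seeing the data, was 4 with joined regions and 1 under the other settings tried. No read depth is given, so how far depth sets the number and width of regions in either list was not tested.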
